A study of Mus musculus with 12 samples.

Results

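The genes of STAT3 and STAT5 cytokine feedback were followed: the transcription factors Stat3, Stat5a and Stat5b, the feedback inhibitors Cish, Socs1, Socs2 and Socs3, and the survival kinases Pim1 and Pim2. They were taken by gene symbol from the deposited table, 1 entry per gene ID, which gave 9 genes of 40481. RNA sequencing covered 12 libraries of cultured mouse hematopoietic stem cells (HSCs) in 4 groups of 3. The cells had been sorted from wild-type (WT) mice or from mice with an inducible ETV6-RUNX1 fusion (iE/R), a fusion known from childhood B-cell leukemia, and came either from fetal liver at E14.5 or from bone marrow at 8 weeks of age. Every group, the WT groups too, received 1 µg/mL doxycycline through 3 days of ex vivo expansion, so the comparisons are between genotypes and not between induced and uninduced cells. The promoter that drives the fusion, the markers used for sorting, and the sex and number of animals per library are not given in the sources used here. Nothing in the labels says that replicates came from separate animals, so p-values measure the spread between these libraries, which may be technical.

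Cytokine receptors without kinase activity of their own signal through Janus kinases (JAKs), which phosphorylate STAT proteins. STAT dimers then enter the nucleus and bind the palindrome TTCNNNGAA. CISH and the SOCS proteins are classical STAT target products that bind receptors or JAKs and dampen the same signal, and PIM kinases are STAT-induced kinases that favour survival and growth. In HSCs this route carries thrombopoietin signals through JAK2 and STAT5, and the expansion culture cited in the labels rests on thrombopoietin and stem cell factor.

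The libraries held 32.3 to 64.5 M reads, and the detection floor of 3 reads equalled 0.0465 to 0.0928 CPM (reads of a gene scaled to a fixed library total). None of 10 HSC markers was at or under 3 reads in every library. Summed megakaryocyte markers were 8423 to 9333 CPM in ETV6-RUNX1 and 4072 to 5473 CPM in WT fetal liver, with 0 of 9 at or under 3 reads in every library, and 1473 to 3118 against 2138 to 2750 CPM in marrow. Summed erythroid markers were 1324 to 2060 against 676 to 939 CPM in fetal liver, and 379 to 583 against 216 to 472 CPM in marrow. Summed macrophage markers in fetal liver ranged from 107 to 121 CPM with the fusion and from 40.7 to 48.9 CPM in WT. The marrow ranges were 90.2 to 108 CPM with the fusion and 36.4 to 57.0 CPM in WT. The genotypes were apart in each source, but Cd68 alone carried most of each sum. Its fetal liver means were 104.6 CPM with the fusion and 43.5 CPM in WT, and its marrow means 89.7 and 41.95 CPM. Of the 8 markers 4 were tested, and limma called 3 higher in fetal liver and 1 in marrow. Over all genes tested, limma called 24.8% higher in fetal liver and 14.4% in marrow. Adgre1, among the fetal calls, reached 1 CPM only in ETV6-RUNX1 libraries. Vcam1 stayed under 1 CPM in each WT fetal liver library. These counts are therefore descriptions. Mrc1 was not higher in fetal liver (mean 1.25 CPM with the fusion, 1.47 CPM in WT). Of the 8, 1, C1qa, was at or under 3 reads in every library. Summed granulocyte-monocyte markers (0 of 10 so low in every library) were 676 to 871 against 423 to 534 CPM in fetal liver and overlapped in marrow. Lyz2 carried most of the higher fetal sum (mean 686 against 233 CPM), and Itgam (18.4 against 4.33) and Csf1r (10.0 against 0.824) were also higher. Prtn3 (30.4 against 188 CPM) and Mpo (10.2 against 67.4 CPM) were lower there. Elane, Ctsg, S100a8 and S100a9 were at or under 3 reads in each ETV6-RUNX1 fetal liver library. The summed HSC markers were also apart, at 4056 to 4196 against 1639 to 2022 CPM in fetal liver and 2824 to 3086 against 1730 to 2601 CPM in marrow. Without Ly6a, whose marrow means were 504 against 90.5 CPM, the marrow sums overlap. Ctnnal1 (60.3 against 105 CPM), Kit (318 against 361.5 CPM) and Slamf1 (66.1 against 74.0 CPM) had lower marrow means with the fusion, and the other HSC markers had higher ones. The part of these marker genes in the results below was not tested. In such bulk samples, fewer cells of a type and less RNA per cell cannot be told apart. Processed pseudogenes took 1.23% to 1.91% of reads in ETV6-RUNX1 and 1.65% to 2.37% in WT fetal liver, and 2.13% to 2.55% against 1.61% to 2.23% in marrow. WT marrow replicate 1 was lower than the other WT marrow libraries for Stat3, Stat5a, Stat5b, Socs3, Pim1 and Pim2. That library was also the highest of the WT marrow libraries for Elane (17.3 against 0.039 and 0.224 CPM) and S100a8 (49.4 against 12.0 and 0.125 CPM). It was the lowest for Kit (129 against 552 and 403 CPM) and Itgam (1.62 against 5.71 and 2.42 CPM). The table does not divide Etv6 into fusion and endogenous reads, and its fetal liver means were 178 CPM with the fusion and 123 CPM without it, with 225 and 164 CPM in marrow.

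Most of the 9 genes were higher in ETV6-RUNX1 cells of either source. In fetal liver, 6 of the 9 were called higher (Stat3, Stat5b, Socs2, Socs3, Cish and Pim1) and 0 lower, where a call is a limma adjusted p under 0.05, and 24.8% of all 14271 genes tested were called higher and 18.3% lower there. In marrow, 7 of the 9 were called higher (Stat3, Socs1, Socs2, Socs3, Cish, Pim1 and Pim2) and 0 lower, against 14.4% of all genes tested higher and 4.93% lower. Socs1 passed the filter on low values through the ETV6-RUNX1 marrow libraries alone, so its marrow call is a description and the count without it is 6 of 8 (3 of 8 with edgeR). The median log2 fold change of the 9 genes was 0.79 in fetal liver and 0.68 in marrow, beside 0.08 and 0.13 over all genes tested. In fetal liver the 3 libraries of each genotype did not overlap for 6 genes that were higher (32.3% of all genes) and 1 that was lower (23.3%). In marrow they did not overlap for 8 genes that were higher (23.6%), or 7 of 8 without Socs1, and 0 that were lower (10.9%). With median-of-ratios scaling the marrow median of all genes moved to 0.00, and 4 of the 9 genes were called higher in marrow, as with edgeR. Of all 14271 genes tested, 1432 were called higher in marrow with median-of-ratios scaling and 1384 with edgeR. With the processed pseudogene share as a covariate all 9 genes were called higher in marrow, Socs1 included. The share of all genes called higher with that covariate is not given here. In fetal liver, edgeR and DESeq2 each called the same number higher, 6, and also 1 lower, Pim2. The difference between the fetal and marrow effects was called for 1 gene, Pim2, which was lower (3.62% of genes tested were called lower and 5.56% higher in that test).

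**Figure D1:**
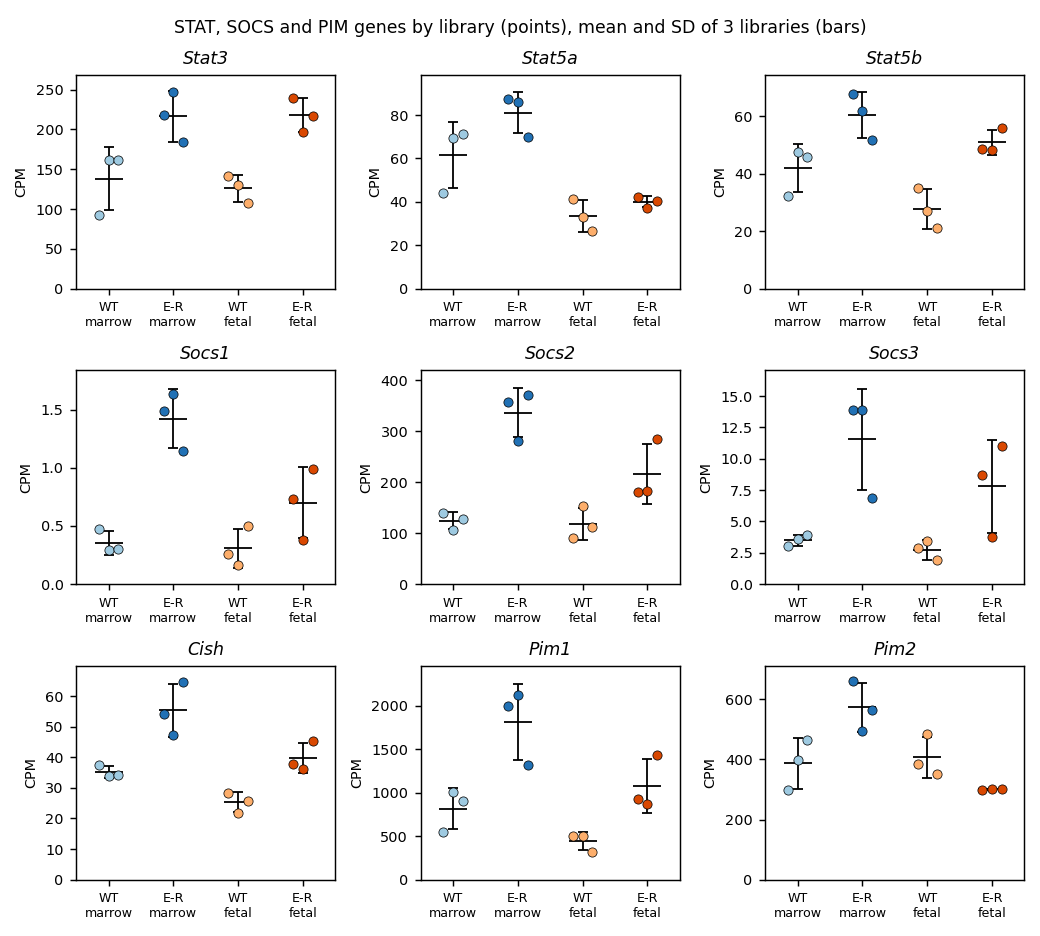
CPM of each of the 9 genes in every library, on a linear axis from 0 with a separate scale per gene; points are libraries, black bars are the mean and SD of 3 libraries, and E-R stands for ETV6-RUNX1. Pim1 had its highest mean in ETV6-RUNX1 marrow (1315 to 2128 CPM), while Pim2 had its lowest mean in ETV6-RUNX1 fetal liver (299 to 302 CPM).

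The STAT transcription factors were measured first. STAT3 transmits signals of the interleukin-6 family and of G-CSF, and STAT5A and STAT5B those of thrombopoietin, erythropoietin and interleukin-3. Their genes lie side by side on chromosome 11 (GRCm38, GENCODE M21): Stat5b (ENSMUSG00000020919) at 100780731 to 100850724 on the minus strand, Stat5a (ENSMUSG00000004043) at 100859351 to 100885169 on the plus strand, and Stat3 (ENSMUSG00000004040) at 100885098 to 100939540 on the minus strand. Stat3 and Stat5a share 72 exonic bases on opposite strands, which are 0.756% and 1.01% of their exonic lengths. Whether strand was used in counting is not given in the sources used here.

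Stat3 stood at 141, 129.7 and 107 CPM in WT fetal liver (replicates 1 to 3) and at 239.8, 197 and 217 CPM in ETV6-RUNX1 fetal liver. In marrow it stood at 92.4, 161 and 161 CPM in WT and at 218, 248 and 184 CPM in ETV6-RUNX1. Each ETV6-RUNX1 library exceeded every WT library of its source (exact permutation p 0.1 for each, two-sided, the smallest that 3 against 3 allows). Stat3 rose in fetal liver by 0.79 ± 0.20 (log2 ± SE, limma adjusted p 0.00544) and in marrow by 0.68 ± 0.20 (adjusted p 0.0285). The fetal call was lost with the processed pseudogene share as a covariate (0.47, adjusted p 0.0579). The marrow call was lost without WT marrow replicate 1 (0.41, adjusted p 0.0838), without ETV6-RUNX1 marrow replicate 1 (0.67, adjusted p 0.0724) or replicate 2 (0.58, adjusted p 0.112). It was also lost with median-of-ratios scaling (0.52, adjusted p 0.0505), with edgeR (0.51, adjusted p 0.0658), with the 6 marrow libraries alone (adjusted p 0.0836) and without the filter on low values (adjusted p 0.0888), 7 of 23 alternatives in all.

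Stat5a differed between the sources of the cells in each genotype. It stood at 41.3, 32.9 and 26.6 CPM in WT and 42.3, 37.2 and 40.5 CPM in ETV6-RUNX1 fetal liver. The marrow values were 44.1, 69.5 and 71.1 CPM in WT and 87.2, 86.2 and 70.1 CPM in ETV6-RUNX1. The genotypes overlapped in each source, and neither the fetal difference (0.27 ± 0.20 SE, limma adjusted p 0.297) nor the marrow difference (0.42 ± 0.20 SE, adjusted p 0.149) was called. With the pseudogene share as covariate the marrow difference was 0.73 and was called (adjusted p 0.0110). Fetal liver was lower than marrow without overlap in each genotype, by -0.85 ± 0.20 in WT (limma adjusted p 0.0115) and -0.997 ± 0.20 in ETV6-RUNX1 (adjusted p 0.00186). The WT call was lost without WT marrow replicate 2 (-0.74, adjusted p 0.0675), WT marrow replicate 3 (-0.73, adjusted p 0.0560) or WT fetal liver replicate 3 (-0.69, adjusted p 0.0685).

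Stat5b stood at 35.1, 27.1 and 21.3 CPM in WT and at 48.8, 48.2 and 55.9 CPM in ETV6-RUNX1 fetal liver. In marrow the values were 32.3, 47.6 and 45.8 CPM in WT and 67.9, 61.9 and 51.8 CPM in ETV6-RUNX1. The genotypes did not overlap in either source. The rise was 0.88 ± 0.19 (log2 ± SE, limma adjusted p 0.00242) in fetal liver. The marrow difference of 0.53 ± 0.19 was not called (adjusted p 0.0686), but with the pseudogene share as covariate it was 0.79 and was called (adjusted p 0.0111). The fetal and marrow effects were not shown to differ (0.34, 95% interval -0.24 to 0.93, limma adjusted p 0.453).

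The balance of the STAT5 paralogues was then compared as the log2 ratio of Stat5a to Stat5b within each library, a measure that does not depend on library scaling and was added after the values had been seen. The ratio was 0.24, 0.28 and 0.32 in WT fetal liver and -0.21, -0.37 and -0.46 in ETV6-RUNX1 fetal liver, so it was above 0 in each WT library and below 0 in each ETV6-RUNX1 library. These are ratios of CPM, not adjusted for gene length, so they show a shift and not which paralogue has more transcripts. The difference of -0.63 separated all 3 libraries from all 3 (exact permutation p 0.1, the smallest possible). In marrow the means were 0.54 ± 0.093 in WT and 0.42 ± 0.059 in ETV6-RUNX1 (SD, n = 3), with overlap (exact permutation p 0.2). The coding sequences of Stat5a and Stat5b share an identical run of 324 bases, at positions 571 to 894 of each coding sequence (GENCODE M21). Of all pairs among the 9 genes they were the only pair with an identical stretch as long as a 100-base read, and 11.5% of the 100-base windows of Stat5a also occur in Stat5b. A read that lies wholly in such a window can be assigned only through its mate, and how such reads were counted is not given, so the levels of both carry that uncertainty. The first 100 bases of that run are shown because a read from them fits both genes:
Stat5a and Stat5b: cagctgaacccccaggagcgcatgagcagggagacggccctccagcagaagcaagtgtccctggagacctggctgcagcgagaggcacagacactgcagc

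**Figure D2:**
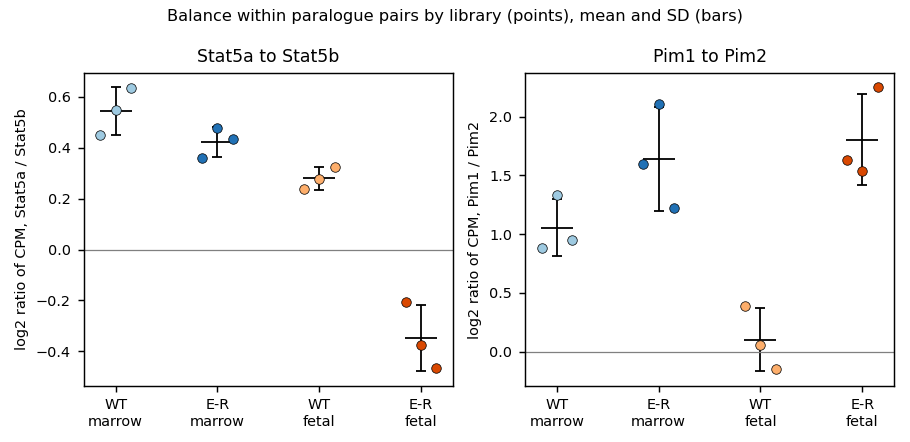
The log2 ratio of Stat5a to Stat5b and of Pim1 to Pim2 in each library, by group (E-R, ETV6-RUNX1); points are libraries and black bars are the mean and SD of 3 libraries. The ETV6-RUNX1 fetal liver libraries are the only ones below 0 for Stat5a to Stat5b, and for Pim1 to Pim2 the WT fetal liver libraries (-0.14 to 0.39) lie below all others.

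The feedback inhibitors came next. CISH is the founding member of the SOCS family and restrains STAT5 signalling, SOCS2 limits growth hormone and other STAT5 signals, SOCS3 binds gp130-type receptors and the G-CSF receptor, and SOCS1 blocks JAKs in interferon signalling. A pair of motifs was sought in RefSeq promoter windows (GRCm38.p6, 250 bases before to 50 after the start), which held 8 of the 9 genes in 11 windows. Socs2 had no such window, so its promoter was not searched. TTCNNNGAA, the STAT palindrome, which reads the same on both strands, was found in Cish and Socs3 and in 8.3% of all 32851 windows. Cish held 2 matches, as did 0.457% of windows with 2 or more. The core of the interferon response element (GAAA, any 2 bases, GAAA), sought on both strands, was found in Socs1 and in 3.44% of windows, and its 2 matches in Socs1 overlap each other (0.225% of windows held 2 or more). The stretches are printed because they hold the letters through which feedback genes are known to be induced; capitals mark the matches, and a match is a description, not a measured binding site. From the start as base 1, the matches begin at 1 and 12 in Cish, at -154 in Socs3 and at -83 and -77 in Socs1. Cish is shown at chr9:107296654-107296683 (plus strand), Socs3 at chr11:117969467-117969566 (minus strand) and Socs1 at chr16:10785577-10785666 (minus strand):
Cish: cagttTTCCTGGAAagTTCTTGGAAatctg
Socs3: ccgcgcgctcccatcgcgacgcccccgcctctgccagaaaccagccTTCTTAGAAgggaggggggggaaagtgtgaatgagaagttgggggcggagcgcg
Socs1: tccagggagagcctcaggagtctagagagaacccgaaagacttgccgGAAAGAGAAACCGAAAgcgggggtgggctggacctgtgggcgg

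Cish (ENSMUSG00000032578, chromosome 9, 107296026 to 107302784, plus strand), whose shown stretch holds the pair of palindromes, rose in each source. It stood at 28.4, 21.9 and 25.8 CPM in WT and at 37.8, 36.2 and 45.4 CPM in ETV6-RUNX1 fetal liver. In marrow it stood at 37.6, 33.8 and 34.2 CPM in WT and at 54.1, 47.3 and 64.5 CPM in ETV6-RUNX1. No ETV6-RUNX1 library overlapped WT of its source. The log2 fold change was 0.63 ± 0.16 SE in fetal liver (limma adjusted p 0.00521) and 0.63 ± 0.16 SE in marrow (adjusted p 0.0141), and the interval of their difference was -0.47 to 0.48. The marrow call was lost with median-of-ratios scaling (0.47, adjusted p 0.0580), quantile normalization (0.49, adjusted p 0.0687) and edgeR (0.50, adjusted p 0.0533), and the fetal call with quantile normalization (0.43, adjusted p 0.0594). Annotated transcripts on the opposite strand, Gm17040 and Gm17041, overlap 4.07% and 7.46% of its exonic bases and reached at most 1.02 and 0 CPM.

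Socs2 (ENSMUSG00000020027, chromosome 10, 95385362 to 95417180, minus strand) was the most abundant of the 4 inhibitors per length of exon. The fetal liver values were 89.8, 153 and 111 CPM in WT and 181, 183 and 284 CPM in ETV6-RUNX1. The marrow values were 139.7, 107 and 127 CPM in WT and 358, 281 and 371 CPM in ETV6-RUNX1. The groups were apart in each source, and the mean ratio was 1.83 in fetal liver and 2.70 in marrow. Socs2 rose by 0.87 ± 0.21 (log2 ± SE, limma adjusted p 0.00452) and by 1.42 ± 0.21 (adjusted p 0.000724). The difference between these effects was not called (-0.56, 95% interval -1.20 to 0.08, adjusted p 0.250). Within ETV6-RUNX1 cells Socs2 was lower in fetal liver than in marrow (-0.66 ± 0.21 SE, limma adjusted p 0.0303), with overlapping libraries. That call was lost with median-of-ratios scaling (-0.48, adjusted p 0.114), edgeR (-0.48, adjusted p 0.141) and DESeq2 (-0.48, adjusted p 0.116), and without ETV6-RUNX1 marrow replicate 1 (-0.61) or 3 (-0.59) or fetal liver replicate 1 (-0.55) or 2 (-0.56). With the pseudogene share as covariate it was -0.09 (adjusted p 0.812).

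Socs3 (ENSMUSG00000053113, chromosome 11, 117966079 to 117970047, minus strand) was low. It stood at 2.88, 3.46 and 1.91 CPM in WT and at 8.68, 3.73 and 11.0 CPM in ETV6-RUNX1 fetal liver, where replicate 2 lay just above the highest WT library. In marrow it stood at 3.01, 3.58 and 3.89 CPM in WT and at 13.9, 13.9 and 6.87 CPM in ETV6-RUNX1. In fetal liver the rise was 1.15 ± 0.33 (log2 ± SE, limma adjusted p 0.0118), and in marrow 1.43 ± 0.33 (adjusted p 0.00944). The fetal call was lost without WT fetal liver replicate 3 (0.98, adjusted p 0.0552), without ETV6-RUNX1 fetal liver replicate 3 (0.87, adjusted p 0.0592) and without the filter on low values (adjusted p 0.0539).

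Socs1 (ENSMUSG00000038037, chromosome 16, 10782240 to 10785536, minus strand) was close to the detection limit. It stood at 0.259, 0.167 and 0.496 CPM in WT and at 0.735, 0.377 and 0.99 CPM in ETV6-RUNX1 fetal liver, with overlap. In marrow it stood at 0.476, 0.292 and 0.299 CPM in WT and at 1.49, 1.64 and 1.14 CPM in ETV6-RUNX1, without overlap. These values rest on 10 to 55 reads a library. The fetal difference of 0.37 ± 0.19 was not called (limma adjusted p 0.131), and the marrow difference was 0.84 ± 0.19 (log2(CPM + 1) ± SE, adjusted p 0.0088). At this level the pseudocount sets the size: with 0.1 in place of 1 the differences were 0.97 in fetal liver and 1.75 in marrow, and with DESeq2 1.07 and 1.83. The fetal difference was called with array weights (0.44, adjusted p 0.0267).

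PIM1 and PIM2 are serine/threonine kinases that promote survival and growth of blood cells downstream of STAT signals. Pim1 (ENSMUSG00000024014, chromosome 17, 29490753 to 29496112, plus strand) was the most abundant of the 9 genes per length, with a mean of 309 CPM per kb of exon over all libraries. Pim2 (ENSMUSG00000031155, chromosome X, 7878262 to 7883432, plus strand) followed with 149, then Socs2 with 20.9, Stat3 with 18.3, Stat5b with 8.18, Stat5a with 7.58, Cish with 6.06, Socs3 with 2.21 and Socs1 with 0.24 CPM per kb.

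Pim1 stood at 504, 503 and 319.7 CPM in WT and at 925, 874 and 1431 CPM in ETV6-RUNX1 fetal liver. In marrow it stood at 549, 1006 and 902 CPM in WT and at 1997, 2128 and 1315 CPM in ETV6-RUNX1. No library of 1 genotype overlapped the other in either source. Pim1 rose in fetal liver by 1.28 ± 0.27 (log2 ± SE, limma adjusted p 0.00161) and in marrow by 1.16 ± 0.27 (adjusted p 0.00912), with a difference of 0.12 (95% interval -0.69 to 0.92). Both calls held in all 23 alternatives. Gm26885 overlaps 14.52% of its exonic bases on the opposite strand and reached at most 0.216 CPM.

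Pim2 was the gene for which the difference between the sources was called. It stood at 384, 484 and 353 CPM in WT and at 299, 302 and 301 CPM in ETV6-RUNX1 fetal liver, where all 3 ETV6-RUNX1 libraries lay below all 3 WT libraries. In marrow it stood at 298, 399 and 466 CPM in WT and at 660.0, 495 and 563 CPM in ETV6-RUNX1, where all 3 lay above. The fetal difference was -0.42 ± 0.17 (log2 ± SE, limma adjusted p 0.0570, not called), and the marrow rise was 0.58 ± 0.17 (adjusted p 0.0291). The difference between the effects, fetal minus marrow, was -0.9985 ± 0.24 (95% interval -1.51 to -0.49, limma adjusted p 0.0192). It was lost without WT fetal liver replicate 2 (-0.87, adjusted p 0.0561), without ETV6-RUNX1 marrow replicate 1 (-0.89, adjusted p 0.0516) and without the filter on low values (adjusted p 0.0689). The fetal fall was called in 10 of 23 alternatives, with edgeR (-0.53, adjusted p 0.0140) and DESeq2 (-0.51, adjusted p 0.00726) among them. The marrow rise was lost in 8 of 23, among them without WT marrow replicate 1 (0.40, adjusted p 0.0959), WT marrow replicate 2 (0.61, adjusted p 0.0533) or ETV6-RUNX1 marrow replicate 1 (0.47, adjusted p 0.113). Pim2 is X-linked, and Xist ranged from 0.175 to 1.27 CPM in marrow and from 51.7 to 89.3 CPM in fetal liver; within fetal liver, Y-linked Ddx3y was 69.1 to 75.2 CPM in ETV6-RUNX1 and 23.5 to 41.5 CPM in WT. Their part in the Pim2 values was not tested.

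The balance of the PIM kinases was compared in the same way, also after the values had been seen. The log2 ratio of Pim1 to Pim2 was 0.39, 0.06 and -0.14 in WT fetal liver and 1.63, 1.53 and 2.25 in ETV6-RUNX1 fetal liver. The difference of 1.70 separated all libraries (exact permutation p 0.1, the smallest possible). In marrow the ratio was 0.88, 1.33 and 0.95 in WT and 1.60, 2.10 and 1.22 in ETV6-RUNX1, with overlap (difference 0.59, exact permutation p 0.2).

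**Figure D3:**
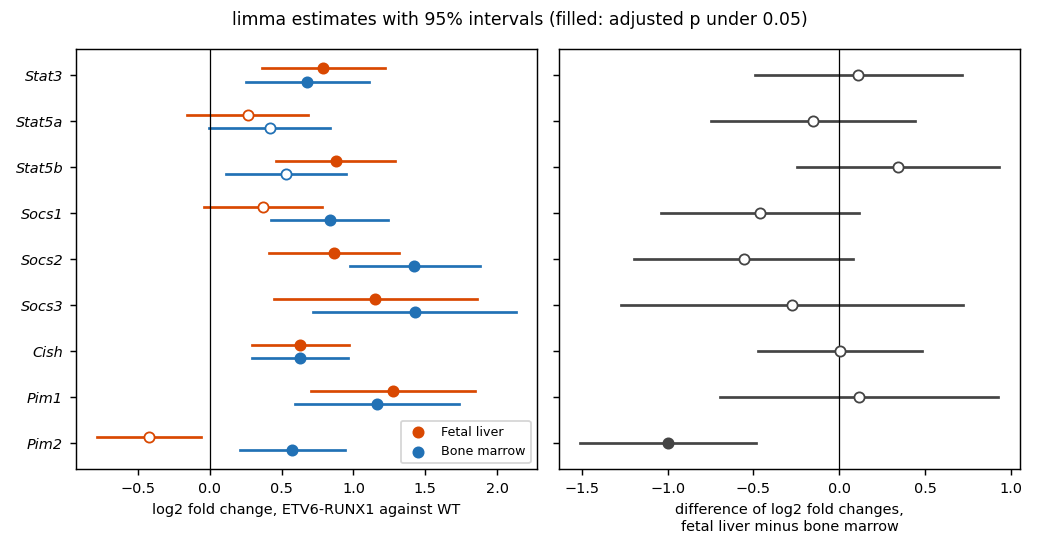
log2 fold change of each of the 9 genes, ETV6-RUNX1 against WT, in fetal liver and in marrow (left) and the difference of these effects, fetal minus marrow (right), from limma on log2(CPM + 1); points are estimates, filled where the adjusted p is under 0.05, and bars are 95% intervals. Of the 9, Pim2 is the only gene with its fetal estimate below 0 (-0.42) and its marrow estimate above 0 (0.58).

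Fetal liver was also compared with marrow within a genotype; these comparisons share libraries with those above. In WT cells, 2 of the 9 genes were called lower in fetal liver, Stat5a and Pim1, and 0 higher, against 7.77% of all genes called lower and 3.38% higher. Libraries did not overlap for 3 genes that were lower (18.9% of all genes) and 0 that were higher (10.6%). Pim1 was lower by -0.87 ± 0.27 (limma adjusted p 0.0496), and this call was lost in 18 of 23 alternatives, with edgeR among them (-0.78, adjusted p 0.0579). In ETV6-RUNX1 cells, 5 of the 9 genes were called lower in fetal liver, Stat5a, Socs2, Cish, Pim1 and Pim2, and 0 higher, against 18.2% of all genes called lower and 10.4% higher. Libraries did not overlap for 4 genes that were lower (27.8% of all genes) and 0 that were higher (14.4%). Among the 4 was Socs1, which passed the filter on low values through the ETV6-RUNX1 marrow libraries alone. Without Socs1 the count is 3 of 8. Pim2 was lower by -0.92 ± 0.17 (limma adjusted p 0.00113), with 299 to 302 CPM in fetal liver and 495 to 660.0 CPM in marrow. The fetal-marrow differences of Cish (-0.46 ± 0.16, adjusted p 0.0410) and Pim1 (-0.76 ± 0.27, adjusted p 0.0466) were each lost in 14 of 23 alternatives. With median-of-ratios scaling, which moved the median of all genes from -0.16 to 0.00, 2 of the 9, Stat5a and Pim2, were called.

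For 6 of the 9 genes (Stat5b, Socs1, Socs2, Socs3, Cish and Pim1) the group means shared 1 order: ETV6-RUNX1 marrow, ETV6-RUNX1 fetal liver, WT marrow, WT fetal liver. ETV6-RUNX1 marrow had the highest mean for 8 of the 9 genes, and for Stat3 it was 217 CPM beside 218 CPM in ETV6-RUNX1 fetal liver, with overlap. With Stat3, 7 of the 9 had both ETV6-RUNX1 means above both WT means. Socs1 is in each of these counts, although it passed the filter on low values through the ETV6-RUNX1 marrow libraries alone. The share of all genes tested with such orders is not given here, so the counts are descriptions only. For Stat5b, Socs2 and Stat3 the lower of the ETV6-RUNX1 groups did not overlap WT marrow (exact permutation p 0.1 each), while for Socs1, Socs3, Cish and Pim1 it did. Stat5a instead ordered both marrow groups above both fetal groups, and WT marrow did not overlap ETV6-RUNX1 fetal liver. For Pim1 the overlapping means were 1077 and 819 CPM (exact permutation p 0.5). For Pim2, the WT groups overlapped each other (407 and 388 CPM, exact permutation p 0.8).

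Members moved together to different degrees. Across the 12 libraries, which share group structure, Pearson's r of log2(CPM + 1) was highest for Stat5b with Pim1 (0.963) and lowest for Stat3 with Pim2 (0.217). The pairs with the lowest r were pairs of another member with Pim2. Outside the 9 genes, the 3 most similar patterns were sought among 9569 genes averaging 5 CPM or more. Stat3 was most like Flii (r 0.988), Stat5a most like Npdc1 (0.989), Stat5b most like Etv6 (0.9748), Socs2 most like Xbp1 (0.955), Socs3 most like Triobp (0.972), Cish most like Ahnak2 (0.965), Pim1 most like Cul9 (0.977), Pim2 most like Rcn2 (0.946) and Socs1 most like Setd1b (0.968). Etv6 reads are not divided into fusion and endogenous reads, and the part of fusion reads in its likeness to Stat5b was not tested. Grina was among the 3 most similar of both Stat5b (0.973) and Pim1 (0.974). Of 27 such genes, 24 stayed among the 3 with a pseudocount of 0.1 and 20 with median-of-ratios scaling.

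The other genes of the pathway were taken from lists. Over all genes tested, limma called 24.8% higher and 18.3% lower in fetal liver, and 14.4% higher and 4.93% lower in marrow. Of the JAK kinases, 3 of 4 were called higher in fetal liver (Jak2, Tyk2 and Jak1) and 2 of 4 in marrow (Jak3 and Jak1), with 0 lower. The marrow call of Jak1 was lost in 6 of 23 alternatives, and edgeR called 1 of 4 there. Jak2, the kinase that serves the erythropoietin receptor, rose from 24.5 to 56.2 CPM in fetal liver (1.18 ± 0.15, limma adjusted p 3.396e-05), and its effect was larger there than in marrow (difference 0.84 ± 0.21, adjusted p 0.0258). That difference was lost in 7 of 22 alternatives, with the pseudogene share (0.52, adjusted p 0.263) and without WT marrow replicate 2 (0.74) or 3 (0.81), WT fetal liver replicate 2 (0.85) or 3 (0.73), ETV6-RUNX1 marrow replicate 1 (0.86) or ETV6-RUNX1 fetal liver replicate 1 (0.83). Jak3, which pairs with the common gamma chain, rose from 19.6 to 58.1 CPM in marrow (1.63 ± 0.31, limma adjusted p 0.00351). Of the other STATs, Stat6, which carries interleukin-4 signals, rose from 72.7 to 137 CPM in fetal liver (0.92 ± 0.26, limma adjusted p 0.00976) and was not called in marrow (0.10 ± 0.26, adjusted p 0.812). The fetal call was lost with the pseudogene share (0.34, adjusted p 0.0572) and without WT fetal liver replicate 3 (0.71, adjusted p 0.0540). Of the other SOCS and PIM genes, Socs4 to Socs7 and Pim3, 0 of 5 were called in either source by limma, edgeR or DESeq2, and 0 of 5 had an unadjusted limma p under 0.05.

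Receptors that feed these STATs were called higher in 12 of 19 tested in fetal liver, with 1 lower, and in 10 of 19 in marrow, with 0 lower; Il7r was not tested, and Osmr, called in each source, passed the filter on low values only through ETV6-RUNX1 libraries. Without Osmr the counts were 11 of 18 and 9 of 18, and in marrow edgeR and DESeq2 each called 8 of those 18 higher and 1, Flt3, lower. Csf2rb2, a beta chain of the interleukin-3 receptor, rose from 11.7 to 183 CPM in fetal liver (3.89 ± 0.20, adjusted p 6.31e-09) and from 13.6 to 49.2 CPM in marrow (1.77 ± 0.20, adjusted p 0.000115); its reads may be shared with the closely related Csf2rb. Il3ra, the specific alpha chain, rose from 2.29 to 29.1 CPM in marrow (3.15 ± 0.27, adjusted p 1.36e-05). Lifr, the leukemia inhibitory factor receptor, stood at 229, 276 and 239 CPM in ETV6-RUNX1 and at 7.24, 3.96 and 2.59 CPM in WT fetal liver (5.55 ± 0.64, adjusted p 1.303e-05). In marrow its ETV6-RUNX1 replicate 2 stood at 31.5 CPM while the other 5 marrow libraries stood at 1.41 to 5.85 CPM. Flt3, the receptor of early lymphoid progenitors, was the 1 receptor that fell in fetal liver, from 22.8 to 5.99 CPM (-1.75, adjusted p 0.00193).

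Brakes of the pathway other than the SOCS proteins were called higher in 6 of 12 in fetal liver and 2 of 12 in marrow, with 0 lower. Of all genes tested, 24.8% were called higher in fetal liver and 14.4% in marrow, so the marrow count is near the share of all genes. In marrow edgeR called 1 of the 12 higher, and DESeq2 called 1 higher and 1, Ptpn2, lower. Sh2b3, which encodes the adaptor LNK that restrains JAK2, rose in each source, from 25.3 to 58.7 CPM in fetal liver (1.19 ± 0.15, limma adjusted p 2.265e-05) and from 19.0 to 26.7 CPM in marrow (0.47 ± 0.15, adjusted p 0.0350). The marrow call of Sh2b3 was lost in 12 of 23 alternatives, with edgeR (0.33, adjusted p 0.144), DESeq2 (0.34, adjusted p 0.141), median-of-ratios (0.32, adjusted p 0.157) and quantile scaling (0.24, adjusted p 0.338) among them, and without WT marrow replicate 2 (0.37) or 3 (0.51), ETV6-RUNX1 marrow replicate 1 (0.46), 2 (0.53) or 3 (0.43) or ETV6-RUNX1 fetal liver replicate 1 (0.47). Cblb, a ubiquitin ligase, rose from 11.2 to 36.7 CPM in fetal liver (1.62 ± 0.18, adjusted p 9.457e-06).

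STAT3 and STAT5 targets outside the 9 genes were called higher in 10 and lower in 2 of 17 tested in fetal liver, and higher in 8 of 17 in marrow. Without Il2ra and Bcl6, which passed the filter on low values only through the ETV6-RUNX1 libraries, 8 of 15 were higher and 2 lower in fetal liver and 6 of 15 were higher in marrow (4 with edgeR, 5 with DESeq2). Junb, an AP-1 subunit, rose from 2.43 to 21.4 CPM in fetal liver (2.44 ± 0.45, limma adjusted p 0.00068) and from 2.23 to 22.9 CPM in marrow (2.75 ± 0.45, adjusted p 0.00142). Gadd45g, a growth arrest gene, rose from 23.7 to 89.8 CPM in fetal liver (1.86 ± 0.25, adjusted p 4.644e-05). Il2ra, the interleukin-2 receptor alpha chain, stood at 2.43, 2.78 and 3.99 CPM in ETV6-RUNX1 marrow and at 0, 0 and 0.249 CPM in WT marrow. Myc, a growth regulator, stood at 104, 112 and 157 CPM in ETV6-RUNX1 against 266, 229.5 and 226 CPM in WT fetal liver (-0.96 ± 0.16, adjusted p 0.000253), while marrow gave 0.04 (adjusted p 0.892). The difference of its effects was -0.999 ± 0.22 (limma adjusted p 0.0131), and with the pseudogene share it was -1.001 (adjusted p 0.0812).

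**Figure D4:**
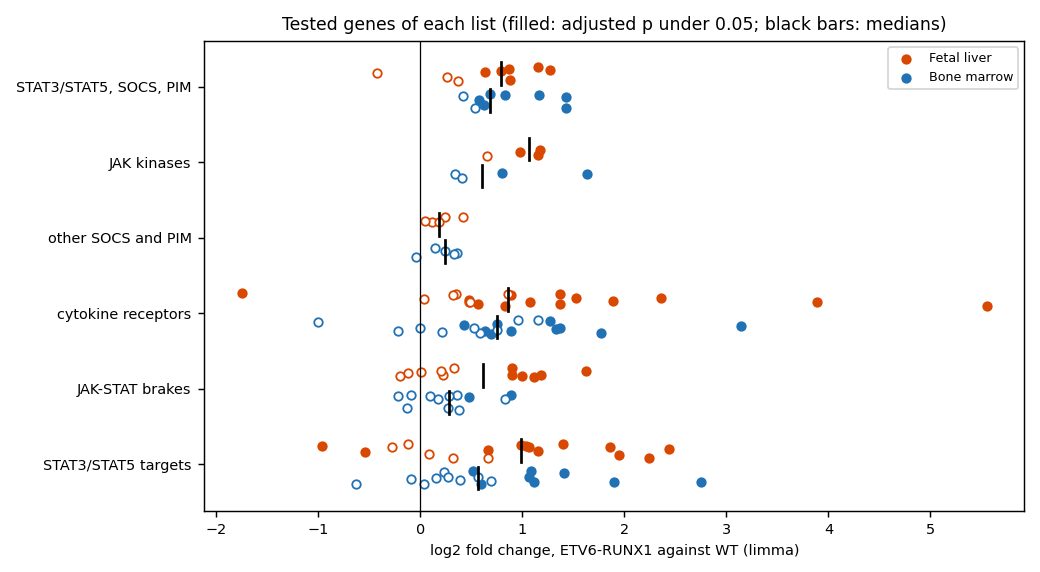
Log2 fold change of ETV6-RUNX1 against WT for each tested gene of the 9 and of the listed pathway groups, in fetal liver and marrow, from limma on log2(CPM + 1); filled points have an adjusted p under 0.05 and black bars are medians. The 4 JAK kinases have medians of 1.06 in fetal liver and 0.60 in marrow, and the 5 other SOCS and PIM genes have medians of 0.18 and 0.24.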

How the data were processed

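The authors deposited 1 table that gives each gene's CPM, its reads relative to the library's total, for the 12 libraries. Total RNA was made into libraries with a stranded low-input kit and read as 100-base pairs, per the labels' protocols. Per the submitters' processing notes, bcl2fastq, STAR 2.5.1a, Subread, featureCounts 1.4.6-p5, Salmon 0.8.2, edgeR and limma were used, with GRCm38; their roles, the annotation and the strand setting are not given in the sources used here. Of 40757 rows, 276 repeated a gene ID. All values (100%, tolerance 1e-06) were whole multiples of a step, so reads were recovered. Counting intervals and floors cover counting error only.

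Values were transformed as log2(CPM + 1), and the 14271 genes that reached 1 CPM in 3 or more libraries were tested with limma 3.58.1 (R 4.3.3; eBayes with trend, 1 coefficient per group), two-sided, with Benjamini-Hochberg adjustment over all genes tested and a threshold of 0.05. Single values were compared by exact permutation. The script was tested on simulated data. Genes named outside the 9 were at most 3 per list and comparison, by smallest p, and the 3 most correlated per gene; Flt3, Junb and Myc in fetal liver were named after their values were seen. Some genes of these lists are not reported here. The 9 genes and the lists were chosen with earlier results of these data known. The alternatives were a pseudocount of 0.1, no filter, a mean of at least 5 CPM, median-of-ratios and quantile scaling, array weights, the pseudogene share as covariate, a replicate block, the 6 libraries compared alone, edgeR 4.0.16 and DESeq2 1.42.0 on recovered reads, and leaving out each library. GENCODE M21 gave positions, and RefSeq (GRCm38.p6) promoters.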

Additional observations from a re-analysis of the deposited data

Results flagged for a closer look

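Pim2 was the 1 result picked out, because the effects of ETV6-RUNX1 in the 2 sources differed by a test of the difference itself. Fetal minus marrow, the difference was -0.9985 on the log2 scale (limma adjusted p 0.0192). All 3 ETV6-RUNX1 libraries lay below all 3 WT libraries in fetal liver, and all 3 lay above in marrow. The value ranged from -1.24 to -0.82 over 22 alternatives, and the adjusted p from 0.00178 to 0.0689.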

How the results depend on the processing

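The calls of Socs2, Stat5b and Pim1 in fetal liver and of Socs2, Socs3 and Pim1 in marrow held in every alternative. The number of the 9 genes called in marrow, 7, was 4 with median-of-ratios scaling and 4 with edgeR, 5 without the filter and with the 6 libraries alone, and 9 with the pseudogene share (5 to 7 leaving out a library). Genes named by rule from the JAK, receptor, brake and target lists gave 12 fetal and 10 marrow calls. Of these, 12 and 7 held in every alternative that gave an adjusted p, while Jak1, Pias4 and Sh2b3 were lost in some. These genes had been picked by smallest p. Bcl6 (fetal liver) and Il2ra (marrow) passed the filter on low values only through ETV6-RUNX1 libraries, so the counts are descriptions. Stat6, from the list of other STATs, is not counted here, and its fetal call was lost in 2 of 23 alternatives. For the difference between sources, 1 became 0 without the filter and 2 with array weights (0 to 1 leaving out a library). For WT fetal liver against marrow, 2 became 1 with a pseudocount of 0.1, without the filter, with a mean of at least 5 CPM, with median-of-ratios or quantile scaling, with the 6 libraries alone and with edgeR, and 4 with array weights (0 to 3 leaving out a library). For ETV6-RUNX1, 5 became 3 without the filter, with quantile scaling and with the pseudogene share, and 2 with median-of-ratios scaling, edgeR and DESeq2 (2 to 6 leaving out a library).

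Over the whole table, the 2763 marrow calls became 1601 with the 6 libraries alone (1520 to 2924 leaving out a library). The 1311 calls of the difference became 767 without the filter, 3637 with array weights and 543 with the pseudogene share (731 to 2332). The 1591 calls between WT sources became 4401 with array weights (868 to 2781). The share of calls that were higher went from 57.6% to 42.0% with quantile scaling in fetal liver, from 74.5% to 50.6%, 48.5% and 50.5% with median-of-ratios, quantile and edgeR scaling in marrow, from 60.6% to 74.5% and 73.5% with median-of-ratios and edgeR in the difference, from 30.3% to 41.0%, 41.6% and 38.9% between WT sources, and from 36.3% to 58.7%, 47.3% and 57.9% between ETV6-RUNX1 sources.

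Direction turned only in values that were not called. With the pseudogene share, Stat5a in fetal liver was -0.0497, and the differences between sources were -0.52 for Stat3, 0.13 for Socs2, -0.17 for Stat5b and -0.40 for Pim1. The difference was -0.0554 for Cish with quantile scaling and 0.0204 for Stat5a with array weights. Between WT sources Stat3 was 0.0011 with median-of-ratios scaling and 0.015 with the pseudogene share, Socs1 0.011 with quantile scaling, and Socs2 0.13 with array weights, 0.0204 with edgeR and 0.012 with DESeq2. Between ETV6-RUNX1 sources Stat3 was -0.0200 with quantile scaling and -0.50 with the pseudogene share. Leaving out a library gave differences between sources of -0.10 to 0.12 for Cish, -0.30 to 0.0684 for Stat5a, -0.0215 to 0.38 for Stat3, -0.11 to 0.38 for Pim1 and -0.58 to 0.12 for Socs3. Between WT sources it gave -0.36 to 0.0373 for Stat3, -0.16 to 0.0207 for Socs1, -0.31 to 0.0759 for Socs2 and -0.10 to 0.23 for Pim2, and between ETV6-RUNX1 sources -0.10 to 0.12 for Stat3 and -0.0587 to 0.39 for the log2 ratio of Pim1 to Pim2. The cause was not tested.

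The replicate numbers did not pair the libraries: of 18 same-numbered pairs 7 had a correlation of deviations over 0.1 (-0.44 to 0.39), and a library correlated best with its own number in 8 of 36 cases of a library and another group, with 0 libraries doing so in all 3 other groups. With the replicate number as a block, 6 of the 9 genes were called in fetal liver, 6 in marrow, 1 in the difference, 1 between WT sources and 4 between ETV6-RUNX1 sources. Depth limits Socs1 most, with 10 to 55 reads a library.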
